A study of Mus musculus with 117 samples.

Results

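The genes described here are those by which fat cells are usually recognised in whole-tissue RNA: the white fat genes Lpl, Fabp4, Adipoq, Retn, Cfd, Pparg, Lipe and Scd1, and the brown fat genes Cidea and Ucp1. They were chosen by name, and every probe set annotated to 1 of these 10 symbols alone was taken. Of the 10 genes, 9 had a probe set, giving 16 of the 36701 probe sets that were no controls, 13 on array design A, 1 on B and 2 on C. Cfd had none among the probe sets annotated to a single symbol and has no value here. RNA of 3 exocrine glands was compared between 2 strains of female mice on 117 Affymetrix arrays, 1 array of each of 3 designs for each of 39 gland samples. NOD-scid mice (NOD.CB17-Prkdc scid/J) have the background of the diabetes-prone NOD mouse. The comparison strain, B6-scid, was B6.CB17-Prkdc scid/SzJ. Each strain carries the scid mutation of Prkdc, which leaves a mouse without mature B and T lymphocytes, so no group here has a normal lymphocyte compartment. The 8 groups were the pancreas at 6 weeks, the submandibular salivary gland at 9 weeks and at 15 weeks, and the lacrimal gland at 15 weeks in each strain, with 5 mice in every group but the NOD-scid lacrimal gland, which had 4. The submandibular glands were freed of sublingual gland, connective tissue and fat before RNA extraction, per the labels' protocols. For the pancreas and the lacrimal gland no removal of fat is described. The lacrimal and submandibular samples of 15 weeks carry the same mouse numbers, and the labels do not say whether both glands came from the same mice.

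White adipocytes store triglyceride in a large droplet and secrete hormones such as adiponectin and leptin. Brown adipocytes hold many small droplets and burn fat for heat through the uncoupling protein of their mitochondria. Of the genes followed here, Adipoq and Retn encode secreted hormones, Pparg the nuclear receptor that drives adipocyte formation, Lpl and Fabp4 the uptake and carriage of fatty acids, Lipe the release of fatty acids from the droplet, Scd1 the desaturation of newly made ones, Cidea a droplet protein, and Ucp1 the uncoupler itself. Several of them are not made by adipocytes alone: Lpl is also made by muscle and macrophages, Fabp4 by capillary endothelium and macrophages, and Scd1 by many lipid-making epithelia.

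Values are scaled signals: the deposited MAS5 intensities, brought to a 2% trimmed mean of 500 on every array. A probe set was tested if its signal reached 100 on at least 4 arrays of a comparison's fit. A gene is said to rise or fall where limma's Benjamini-Hochberg adjusted p over all probe sets tested was under 0.05. Differences are on the log2(signal + 32) scale, which understates the change of dim probe sets. The signal of a probe set also depends on its probes, so levels were compared between groups and not between genes. Where a gene had several probe sets, the brightest on design A leads and the others are named. In whole glands, fewer cells of a type and less RNA per cell cannot be told apart.

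Some libraries carried RNA typical of another gland. In the B6-scid lacrimal group, mice 2 and 3 read 160308 and 268249 for Bpifa2, a salivary protein, where the other 3 mice read 348 to 395. In the NOD-scid submandibular groups, mouse 1 read 19646 for the pancreatic elastase Cela1 at 9 weeks, where the other 4 read 1563 to 2227, and mouse 1 read 1146 at 15 weeks, where the other 4 read 95.7 to 159. The lacrimal protein Obp1a read 745 to 30157 in all 10 submandibular samples of 9 weeks and 13136 in B6-scid mouse 1 at 15 weeks, against 4.50 to 574 in the other 9 samples of 15 weeks. Calls of member probe sets that rest on the first 4 of these samples are given with and without them. Calls of genes other than the members are given only with them. Obp1a was above those other 9 samples of 15 weeks in every submandibular sample of 9 weeks, though only at 745 in NOD-scid mouse 1. No result of that age could therefore be given without such samples. The ratio of 3' to 5' signal of Actb, a sign of RNA integrity, ran from 1.30 to 4.34 over the 39 samples.

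The genes that most clearly mark an adipocyte were dim or uneven in every gland. None of them differed between groups in a comparison where it was tested, and not all were bright enough to be tested. Adiponectin (Adipoq, probe set 99104_at) is made by adipocytes and little else. In the pancreas it read 301, 262, 301, 345 and 177 in the 5 B6-scid mice and 331, 205, 149, 105 and 219 in the 5 NOD-scid mice. The B6-scid mean was 277 ± 63.3 (SD, n = 5) and the NOD-scid mean 202 ± 85.4 (SD, n = 5), and the ranges overlapped. The 9-week submandibular gland read 214, 75.7, 204, 75.8 and 128 in B6-scid and 148, 163, 126, 172 and 188 in NOD-scid. At 15 weeks the same gland read 107, 84.2, 131, 94.0 and 153 in B6-scid and 222, 96.1, 167, 195 and 146 in NOD-scid. These 4 submandibular groups overlapped, and the B6-scid group at 9 weeks was itself split, with mice 1 and 3 well above mice 2 and 4. In the lacrimal gland the B6-scid mice read 104, 197, 182, 165 and 144, and the 4 NOD-scid mice read 299, 217, 91.2 and 392. The NOD-scid lacrimal group held the highest Adipoq value of the series, 392, and, at 91.2, 1 of the 6 values under 100. The strain difference, NOD-scid minus B6-scid, was -0.45 (SE 0.26) in the pancreas, 0.24 in the submandibular gland at 9 weeks, 0.42 at 15 weeks and 0.45 in the lacrimal gland, with limma adjusted p of 0.621, 0.780, 0.870 and 0.599.

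Resistin (Retn, 102366_at), the hormone that white fat secretes in mice, was under 100 in 28 of the 39 samples. It was above 100 mainly in the pancreas, where it read 183, 74.1, 104, 104 and 130.0 in B6-scid and 326, 85.8, 145, 52.6 and 104 in NOD-scid. There the strains overlapped and did not differ by the test (difference 0.07, adjusted p 0.975, limma). In the other glands too few samples reached 100 for this probe set to be tested. In the submandibular gland it stayed between 19.5 and 147, and in the lacrimal gland single mice stood far above the rest, at 229.5 in B6-scid mouse 3 and 160.3 in NOD-scid mouse 3. The second Retn probe set, 165365_i_at on design B, ran from 43.6 to 1069 and did not follow the first: over the 39 samples their log2 values correlated at r = 0.03. Its B6-scid pancreas readings were 91.1, 857, 94.8, 1069 and 76.1, so that single mice of 1 group were far apart.

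Pparg (97926_s_at), the receptor that adipocytes need to form, was under 100 in 36 of the 39 samples and too dim to be tested in any comparison. Its readings in the pancreas were 15.9, 17.8, 109, 98.0 and 115 in B6-scid and 18.8, 118, 65.5, 61.4 and 20.1 in NOD-scid. In the 15-week submandibular and lacrimal glands all 19 samples lay between 4.32 and 33.7. No detection call was used here, and readings this low show neither the presence nor the absence of the receptor.

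Hormone-sensitive lipase (Lipe, 103083_at) splits fatty acids off stored triglyceride when adipocytes are stimulated. It read 366, 547, 260.2, 157 and 484 in the B6-scid pancreas and 381, 368, 302, 169.8 and 119.9 in the NOD-scid pancreas. In the other glands its group means lay between 145 ± 73.9 (SD, n = 4, NOD-scid lacrimal) and 303 ± 56.6 (SD, n = 5, B6-scid submandibular at 9 weeks). Every pair of groups compared overlapped, and the strain differences of -0.39, -0.31, 0.15 and -0.42 in the pancreas, submandibular gland at 9 and at 15 weeks and lacrimal gland all missed the threshold (limma adjusted p 0.792, 0.816, 1.0 and 0.718).

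**Figure D1:**
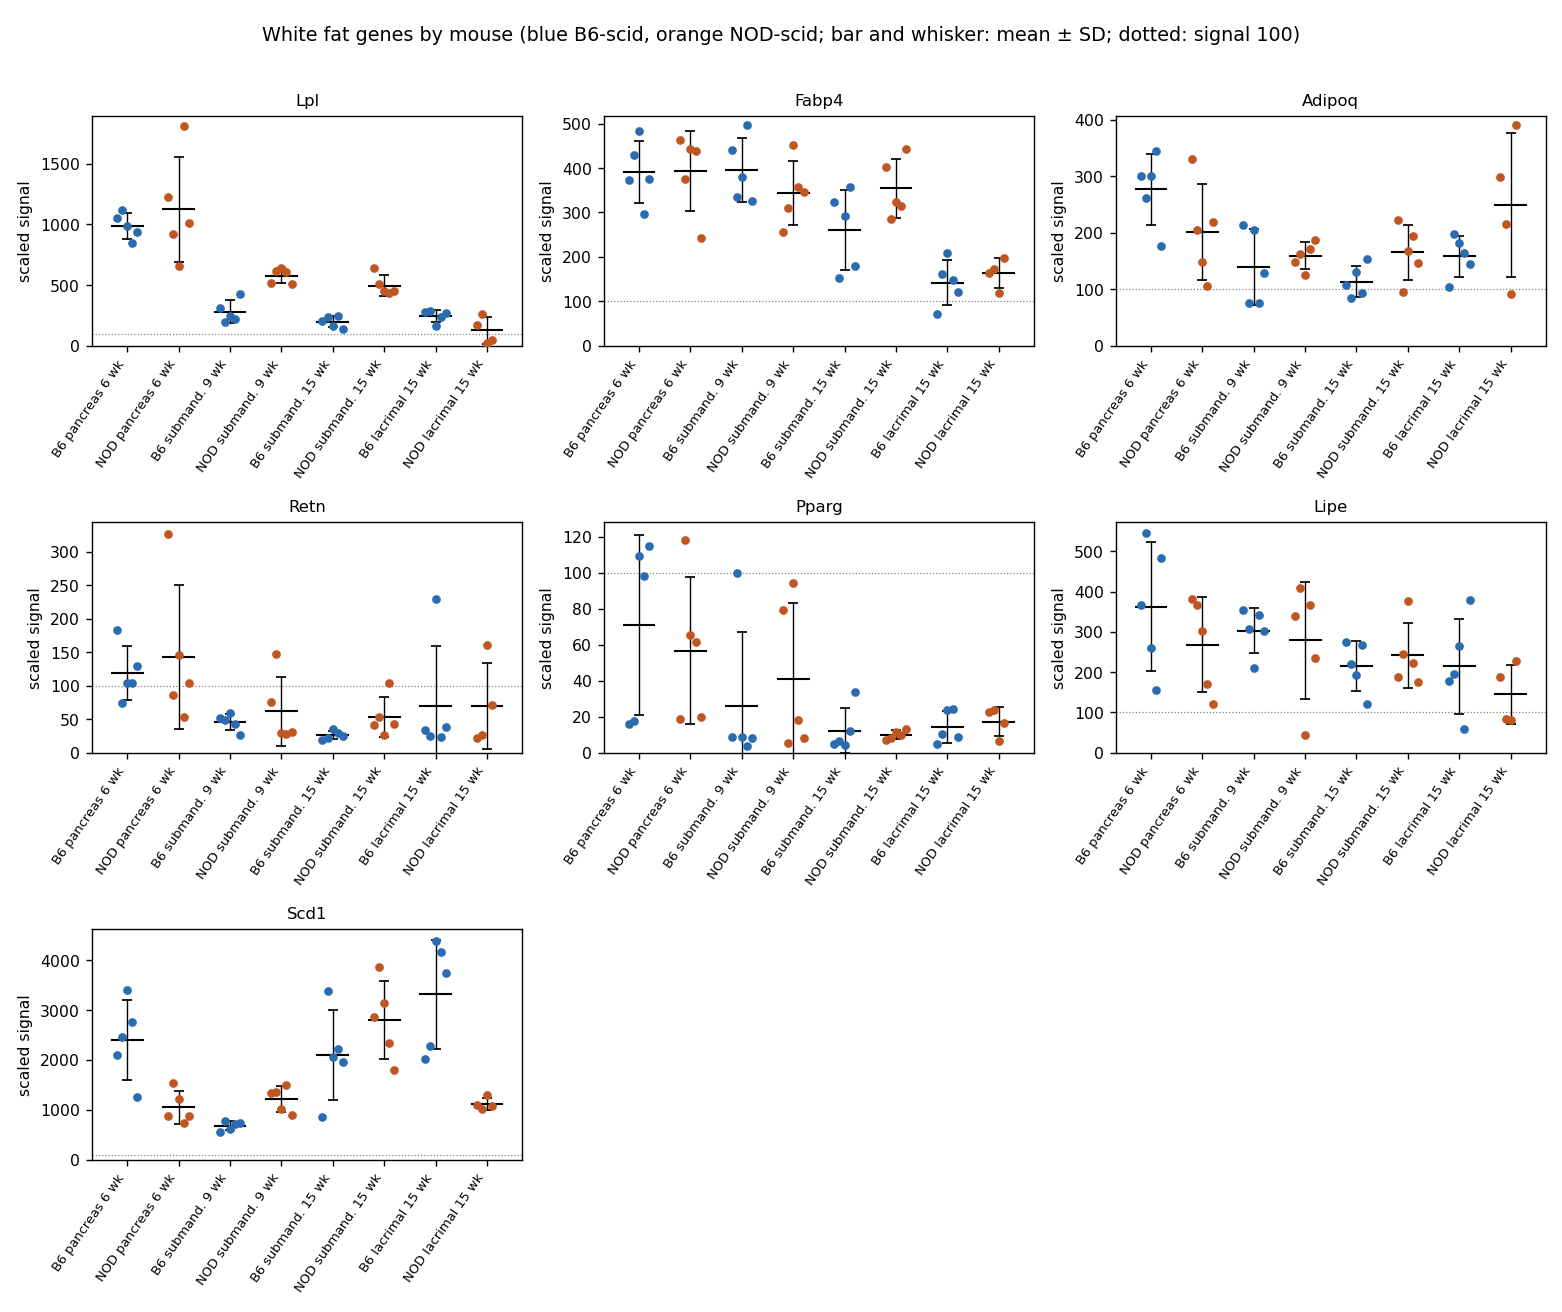
Scaled signal (y axis, linear, no unit) of the lead probe set of each of the 7 white fat genes in every mouse, by gland, age and strain; points are mice, the bar is the group mean and the whisker the SD, cut at 0 where it would reach below. Lpl is highest in both pancreas groups and, in the submandibular gland, all 10 NOD-scid mice lie above all 10 B6-scid mice at both ages, while Pparg and Retn lie mostly under the dotted line at a signal of 100.

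Lipoprotein lipase (Lpl, 95611_at), which frees fatty acids from circulating triglyceride at the capillary wall, was higher in the NOD-scid submandibular gland at both ages. At 9 weeks it read 308, 199, 246, 217 and 429.8 in the B6-scid mice and 514, 616, 639, 606 and 513 in the NOD-scid mice. All 5 NOD-scid mice lay above all 5 B6-scid mice. The NOD-scid mean of 578 ± 60.0 (SD, n = 5) was 2.06 times the B6-scid mean of 280.2 ± 93.3 (SD, n = 5). Lpl rose by 1.01 (SE 0.19, adjusted p 0.00890, limma), and no other of the 14 member probe sets tested passed (1 of 14, where 1.12% of all probe sets did). At 15 weeks the B6-scid mice read 203, 236, 165, 242 and 139 and the NOD-scid mice 640.4, 505, 453, 433 and 453. The groups were again apart, with means of 197 ± 44.6 and 497 ± 84.7 (SD, n = 5 each), a ratio of 2.52. The difference was 1.22 (SE 0.19, adjusted p 0.00168, limma), again the only call among 14 member probe sets, against 0.594% of all. The comparisons at 9 and 15 weeks share no sample, but they share the estimate of the spread. The 9-week call was lost only when all 39 samples were fitted together (adjusted p 0.0696). The strain difference did not change with age by the test (interaction 0.21, adjusted p 0.999).

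The second Lpl probe set, 160083_at, was dimmer, under 100 in 20 of the 39 samples. At 15 weeks it read 47.5, 77.9, 49.3, 16.6 and 8.42 in the B6-scid submandibular gland and 105, 179, 174, 129 and 87.4 in NOD-scid. Here too the groups did not overlap, but the difference of 1.27 (SE 0.30) missed the threshold at an adjusted p of 0.0615 (limma). At 9 weeks its groups overlapped, at means of 86.9 ± 20.6 and 117 ± 73.2 (SD, n = 5 each), with a difference of 0.21 (adjusted p 0.861). At 15 weeks it thus leaned the same way as 95611_at without passing the test. At 9 weeks its means leaned that way, but its medians did not, at 99.5 in B6-scid and 94.5 in NOD-scid.

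Muscle and macrophages, which also make Lpl, and endothelium, on whose surface it acts, were followed by marker lists. Of 11 skeletal muscle, 13 macrophage and 12 endothelial markers tested in the submandibular gland, 0 passed limma's test between the strains at either age. At an unadjusted p under 0.05 there were 0, 2 and 0 of them at 9 weeks and 1, 3 and 1 at 15 weeks, beside 3715 and 2182 of all 32136 probe sets. The summed signal of the 17 muscle genes on the arrays ran from 4758 to 10107 in B6-scid and from 5949 to 8880 in NOD-scid at 9 weeks. At 15 weeks it ran from 4771 to 6435 and from 4606 to 7863. The 14 macrophage genes summed to 7886 to 10705 and 7609 to 8902 at 9 weeks, and to 7287 to 8749 and 7362 to 8492 at 15 weeks, in B6-scid and NOD-scid. The sums of the 13 endothelial genes ran lower in NOD-scid with a narrow overlap, at 6143 to 7535 against 7483 to 8665 at 9 weeks and 5330 to 6179 against 6098 to 7055 at 15 weeks. Of the 17 muscle genes, 8 reached 100 in every mouse of each strain at 15 weeks, and 7 in B6-scid and 6 in NOD-scid were under 100 in every mouse. The part of these cells in the Lpl difference was not tested. Without the 2 NOD-scid samples high in Cela1 the difference was 1.05 at 9 weeks and 1.13 at 15 weeks (limma adjusted p 0.0143 and 0.0111).

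In the pancreas Lpl had its highest levels, 1055, 1122, 986, 846 and 936 in B6-scid and 1226, 922, 655, 1807 and 1010.5 in NOD-scid. The NOD-scid mice were the more spread, and the strains overlapped, at 989 ± 107 and 1124 ± 433 (SD, n = 5 each; difference 0.11, adjusted p 0.933, limma). The second probe set was apart there, at 237, 199, 164, 220.1 and 45.4 against 379, 313, 249, 737 and 417, with a difference of 1.17 (SE 0.37) that missed the threshold (adjusted p 0.254). In the lacrimal gland the order turned. The B6-scid mice read 282, 286, 167, 234 and 272 and the NOD-scid mice 175, 266, 26.3 and 44.2, so 2 of 4 NOD-scid mice were far under every B6-scid mouse and the others within their range. The difference was -1.10 (SE 0.45, adjusted p 0.309, limma). In NOD-scid mice at 15 weeks Lpl was lower in the lacrimal than in the submandibular gland, with no overlap (lacrimal minus submandibular -2.03, SE 0.35, adjusted p 0.000572), and without the samples high in Cela1 the difference was -1.94 (adjusted p 0.00207). In B6-scid mice the glands overlapped (difference 0.29, adjusted p 0.644). The change of the gland difference between strains was -2.32 (SE 0.48, adjusted p 0.0439, limma), the single call among 13 member probe sets where 0.328% of all passed. That call was lost in 16 of the 19 fits with a mouse left out, without the 2 B6-scid lacrimal mice high in Bpifa2 (adjusted p 0.0749) and without the 2 NOD-scid submandibular samples high in Cela1 (0.0831).

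**Figure D2:**
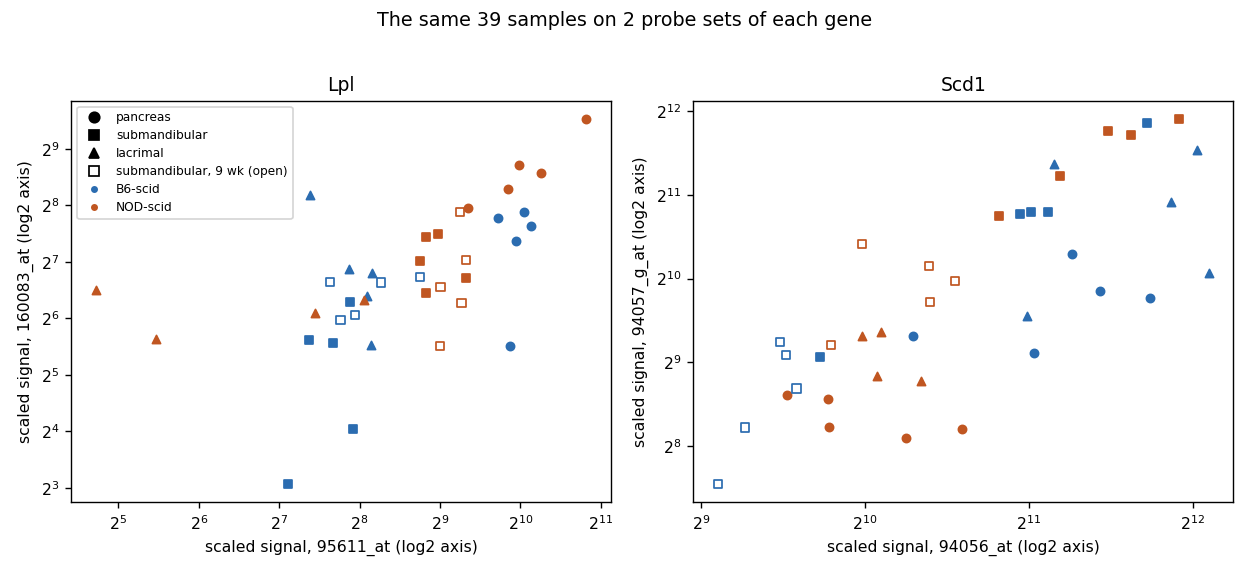
Scaled signal of 2 probe sets of Lpl (left) and of Scd1 (right) in the same 39 samples, both axes on a log2 scale; each point is a mouse, with colour for the strain, shape for the gland and open squares for the submandibular gland at 9 weeks. The Scd1 pair rises together (r = 0.79 over the 39 samples), while the Lpl pair (r = 0.64, and 0.15 within groups) is bright on both probe sets in most of the pancreas samples.

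The level of Lpl by group fell into 3 steps, with the 2 pancreas groups highest, the 2 NOD-scid submandibular groups next, and the remaining 4 groups together, from 280.2 in the B6-scid submandibular gland at 9 weeks to 128 in the NOD-scid lacrimal gland. Neighbouring groups overlapped within each step and not between steps. The pancreas differs from the other glands in age as well as tissue, so no test was made of it against them. For each of the other 8 genes every neighbouring pair in the order of group means overlapped.

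Fabp4 (100567_at), which carries fatty acids inside adipocytes and capillary endothelium, was lower in the lacrimal than in the submandibular gland at 15 weeks. The B6-scid pancreas read 373, 429, 483, 296 and 375 and the NOD-scid pancreas 462, 376, 443, 439 and 243, with means of 391 ± 69.7 and 393 ± 90.0 (SD, n = 5 each). At 9 weeks the submandibular gland read 439.9, 335, 379, 497 and 327 in B6-scid and 256, 309.8, 453, 357 and 346 in NOD-scid. At 15 weeks it read 323, 153, 293, 357 and 180.2 in B6-scid and 402, 286, 325, 315 and 443 in NOD-scid. The B6-scid mean was 395 ± 72.3 at 9 weeks and 261 ± 89.7 at 15 weeks (SD, n = 5 each), with overlap and an age difference of -0.59 that missed the threshold (adjusted p 0.186, limma). The lacrimal gland read 70.7, 163, 209, 149 and 121 in B6-scid and 163, 174, 118 and 198 in NOD-scid. All 4 NOD-scid lacrimal samples lay below all 5 NOD-scid submandibular samples, while in B6-scid the glands overlapped. The difference, lacrimal minus submandibular, was -0.99 in NOD-scid (SE 0.25, adjusted p 0.0121, limma) and -0.75 in B6-scid (SE 0.24, adjusted p 0.04995). Without the samples high in Cela1 the NOD-scid difference was -0.94 (adjusted p 0.0287). The B6-scid call lies at the threshold and was kept in 3 of 19 fits with a mouse left out, without the B6-scid mice high in Bpifa2 (adjusted p 0.0214), and not without the NOD-scid samples high in Cela1 (0.0571). No strain difference in Fabp4 passed, the nearest being 0.44 in the submandibular gland at 15 weeks (adjusted p 0.740).

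Scd1, the desaturase that makes oleate from stearate, rose with age in the submandibular gland and was lower in NOD-scid in the lacrimal gland. Probe set 94056_at read 549, 766, 616, 713 and 732 in the B6-scid mice at 9 weeks and 846, 3382, 2068, 2225 and 1969 at 15 weeks. In NOD-scid it read 1344, 1348, 1012, 1497 and 887 at 9 weeks and 2861, 3865, 3149, 2335 and 1806 at 15 weeks. No 15-week mouse fell into the range of its strain at 9 weeks, though B6-scid mouse 1 came close to it, and that mouse also held 13136 of Obp1a, like the 9-week glands. The rise was 1.48 in B6-scid (SE 0.28, adjusted p 0.0119, limma) and 1.16 in NOD-scid (SE 0.28, adjusted p 0.0477). The second probe set, 94057_g_at, rose by 2.00 in B6-scid (SE 0.39, adjusted p 0.0153) and read 1.54 higher in NOD-scid without passing (adjusted p 0.0621). The B6-scid calls held in all 20 fits with a mouse left out, the NOD-scid call of 94056_at in 3 of 20, and without the 2 NOD-scid samples high in Cela1 it was lost (difference 1.18, adjusted p 0.131). The change with age did not differ between strains by the test (interaction -0.31 for 94056_at). In the age comparisons 3 of 14 member probe sets passed in B6-scid, where 1.22% of all did, and 1 of 14 in NOD-scid, against 0.977%. For the difference in age effect between strains, limma called 0.0% of 32136 probe sets, members included, although 1605 of all and 4 of the members had an unadjusted p under 0.05.

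RNA typical of other glands also had lower means at 15 than at 9 weeks. Obp1a had means of 16876 and 2882 in B6-scid and of 15705 and 44.7 in NOD-scid, at 9 and 15 weeks. Cela1 had means of 1693 and 104 in B6-scid and of 5328 and 334 in NOD-scid. Single mice weigh on some of these means, such as B6-scid mouse 1 at 15 weeks (Obp1a 13136) and NOD-scid mouse 1 at 9 weeks (Cela1 19646). The part of this RNA in the rise of Scd1 was not tested. The age, strain and gland comparisons share groups, so their values for a gene are not independent.

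In the lacrimal gland 94056_at read 2029, 2273, 4380.4, 4163 and 3738 in the B6-scid mice. The 4 NOD-scid mice read 1095, 1013, 1298 and 1078, all below every B6-scid mouse and within a narrow range. The means were 3317 ± 1092 (SD, n = 5) and 1121 ± 123 (SD, n = 4). The difference was -1.48 (SE 0.26, adjusted p 0.0276, limma), the single call among 10 member probe sets tested, where 1.19% of all passed. Probe set 94057_g_at also separated the strains, at 749, 2634, 1076, 2952 and 1933 against 656, 634, 438 and 458, with a difference of -1.56 (SE 0.39) that missed the threshold (adjusted p 0.103). Without B6-scid mice 2 and 3, which carried salivary RNA, the difference of 94056_at was as large, at -1.48, with an adjusted p of 0.0657. The call was also lost in 7 of 9 fits with a mouse left out, at an adjusted p of up to 0.0804. Of the other cell types followed, the 13 endothelial genes summed to 3389 to 5652 in NOD-scid and 5631 to 7107 in B6-scid, and the 14 macrophage genes to 5516 to 6079 and 5940 to 8562. The 7 genes of the lipid-making sebaceous and Harderian glands summed to 2108 to 3329 and 2329 to 3364. Of the 5 sebaceous and Harderian, 9 endothelial, 11 macrophage and 12 muscle genes tested 0 passed, and of 10 fibroblast genes Pdgfra alone did, lower in NOD-scid (difference -1.55, adjusted p 0.0257, limma). At an unadjusted p under 0.05 there were 0, 3, 3, 4 and 5 in these 5 lists, beside 3861 of all 27686 probe sets. The part of these cells was not tested.

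In the pancreas both bright Scd1 probe sets had lower means in NOD-scid. Probe set 94057_g_at read 553, 1258, 872, 925 and 635 in B6-scid and 299.6, 295, 274, 391 and 379 in NOD-scid, with no overlap. The difference was -1.25 (SE 0.22, adjusted p 0.0308, limma), the single call among 12 member probe sets tested, where 0.647% of all passed. The call was kept in 4 of 10 fits with a mouse left out, and adding the Actb 3' to 5' ratio as a covariate gave an adjusted p of 0.241. Probe set 94056_at read 2091, 2458, 3414, 2771 and 1255 against 879.9, 1545, 1217, 736 and 877, overlapping through B6-scid mouse 5, and its difference of -1.14 (SE 0.28) missed the threshold (adjusted p 0.126). At 9 weeks the submandibular gland showed the opposite direction: 94056_at was higher in all 5 NOD-scid mice, at 1218 ± 256 against 675 ± 89.8 (SD, n = 5 each), a difference of 0.81 that did not pass (adjusted p 0.221). In the gland comparison of NOD-scid mice at 15 weeks Scd1 was lower in the lacrimal gland, with differences of -1.26 (94056_at, SE 0.32, adjusted p 0.0120) and -2.33 (94057_g_at, SE 0.45, adjusted p 0.00137), calls that held in all 19 fits with a mouse left out. Without the samples high in Cela1 they were -1.24 and -2.26 (adjusted p 0.0247 and 0.00428). In B6-scid the same differences were 0.71 and 0.03 (adjusted p 0.152 for the former), and the change of the gland difference between strains was -1.97 (SE 0.44, adjusted p 0.0668, limma). The third Scd1 probe set, 94058_r_at, stayed between 15.4 and 314. It was too dim to be tested between strains in the pancreas, with means of 56.3 in B6-scid and 70.6 in NOD-scid, or in the lacrimal gland. It passed in none of the other comparisons.

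**Figure D3:**
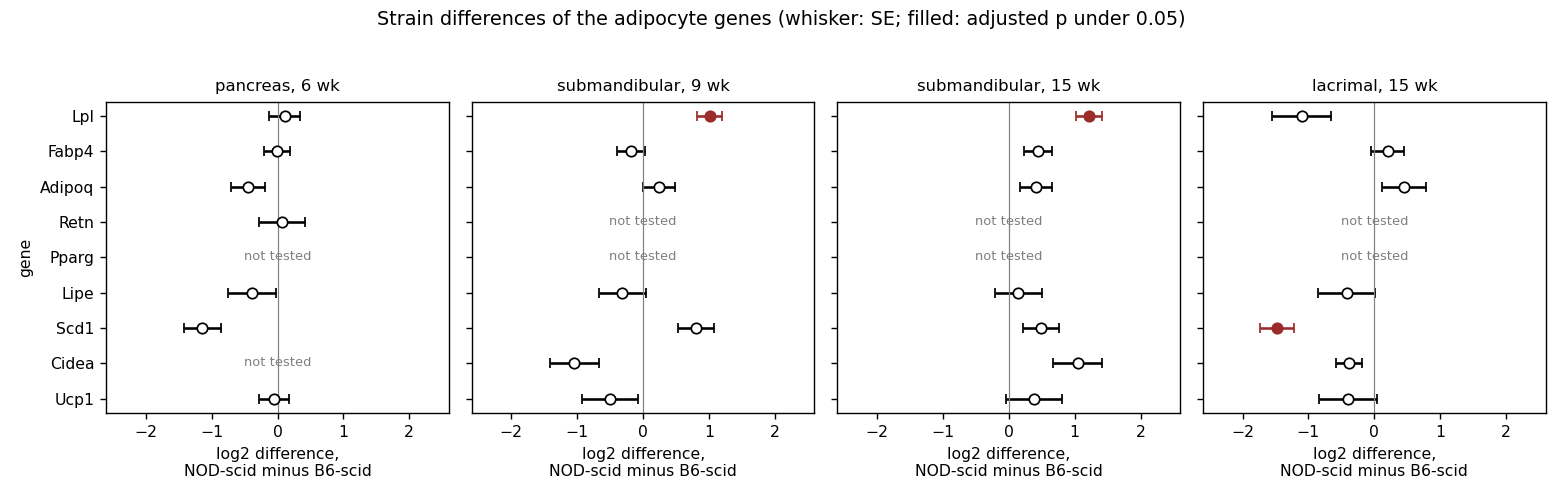
Difference between strains of the lead probe set of each of the 9 genes (x axis, NOD-scid minus B6-scid on the log2(signal + 32) scale) in the 4 gland and age comparisons; whiskers are the SE of limma's fit and filled points have an adjusted p under 0.05. Lpl is filled in the submandibular gland at 9 and 15 weeks and Scd1 in the lacrimal gland, and the other points tested are open.

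The brown fat genes were followed apart. Cidea (99994_at), a droplet protein of brown adipocytes that other lipid-secreting epithelia also make, was dim in the pancreas, at 14.3 to 70.8 in B6-scid and 16.3 to 111 in NOD-scid, and was not tested there. In the B6-scid submandibular gland it read 223, 261, 176, 214 and 274 at 9 weeks and 24.4, 26.5, 79.0, 93.4 and 110.0 at 15 weeks. Every 15-week mouse lay below every 9-week mouse, and Cidea fell by 1.50 on the log2 scale (SE 0.37, adjusted p 0.0491, limma). In NOD-scid it read 32.7, 25.7, 201, 165 and 151 at 9 weeks and 189, 80.4, 202, 187 and 159.9 at 15 weeks. The NOD-scid 9-week group was split, with mice 1 and 2 far under the other 3, and the ages overlapped (difference 0.59, adjusted p 0.491). The strain by age interaction was 2.09 (SE 0.52, adjusted p 0.650), so the unlike courses were not distinguished by the test. The fall in B6-scid was called in 5 of 20 fits with a mouse left out and in 9 of 14 other settings. It was lost with the Actb 3' to 5' ratio as a covariate (limma adjusted p 0.0923) and without the 9-week samples numbered 4 and 5 (0.0936). Obp1a also had a lower mean at 15 than at 9 weeks, and the part of such RNA in the fall of Cidea was not tested.

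In the lacrimal gland Cidea read 146, 190.1, 294, 239.8 and 224 in B6-scid and 182, 151, 152 and 145 in NOD-scid, overlapping, with a difference of -0.38 (adjusted p 0.423, limma). In B6-scid at 15 weeks it was higher in the lacrimal than in the submandibular gland, with no overlap, by 1.42 (SE 0.26, adjusted p 0.00143), and the call held in all 19 fits with a mouse left out and without either pair of doubted libraries. In NOD-scid the glands had like means, 157 ± 16.5 (SD, n = 4) in the lacrimal and 164 ± 49.1 (SD, n = 5) in the submandibular gland. The interaction of -1.43 missed the threshold (adjusted p 0.158). In the gland comparisons 3 of 13 member probe sets passed in B6-scid, where 11.4% of all did: Cidea and Lpl 160083_at higher in the lacrimal gland and Fabp4 lower. In NOD-scid 4 of 13 passed, all lower in the lacrimal gland, against 15.2% of all. The Lpl 160083_at difference of 1.10 (adjusted p 0.0323) fell to 0.72 (adjusted p 0.166) without the B6-scid lacrimal mice high in Bpifa2, of which mouse 3 read 290.2, and the lead Lpl probe set did not share it.

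Uncoupling protein 1 (Ucp1), the protein that defines brown fat, had 4 probe sets that did not tell the same story. The lead, 161422_f_at, was under 100 in 18 of the 39 samples and ran from 6.02 to 237. It read 219.8, 157, 112, 185 and 156 in the B6-scid pancreas and 102, 165, 237, 202 and 106 in the NOD-scid pancreas, and no comparison of it passed. Probe set 99507_at read 212, 112, 117, 87.8 and 118 in the B6-scid pancreas and 18.4, 41.4, 34.0, 23.2 and 71.4 in NOD-scid. These groups did not overlap, and the difference of -1.21 (SE 0.24) missed the threshold (adjusted p 0.0506, limma). The probe set reached 100 in 4 B6-scid mice and 0 NOD-scid mice. It thus met the filter for testing only through the group where it was high, so the gap is no independent support for a strain difference. Of 11 other settings that tested it, 2 called it, quantile normalization (limma adjusted p 0.0427) and median scaling (0.0470). Of the 6 fits with a mouse left out that tested it, 1 called it. The adjusted p ran up to 0.199 over these settings and fits. At 9 weeks the same probe set was apart in the submandibular gland in the opposite direction, at 82.5, 16.1, 103, 24.2 and 52.1 in B6-scid and 163, 173, 164, 126 and 132 in NOD-scid (difference 1.17, adjusted p 0.237, limma). There it reached 100 in these 5 NOD-scid mice and in 1 mouse of each other submandibular group, so the filter was again met through the higher group. The lead probe set gave -0.05 and -0.51 in those 2 comparisons. The 2 probe sets of design C ran from 13.4 to 486 (169349_at) and from 4.68 to 294 (165911_r_at), with single mice of a group up to several times the rest. Over the 39 samples the pairs of Ucp1 probe sets correlated at r = -0.15 to 0.32.

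**Figure D4:**
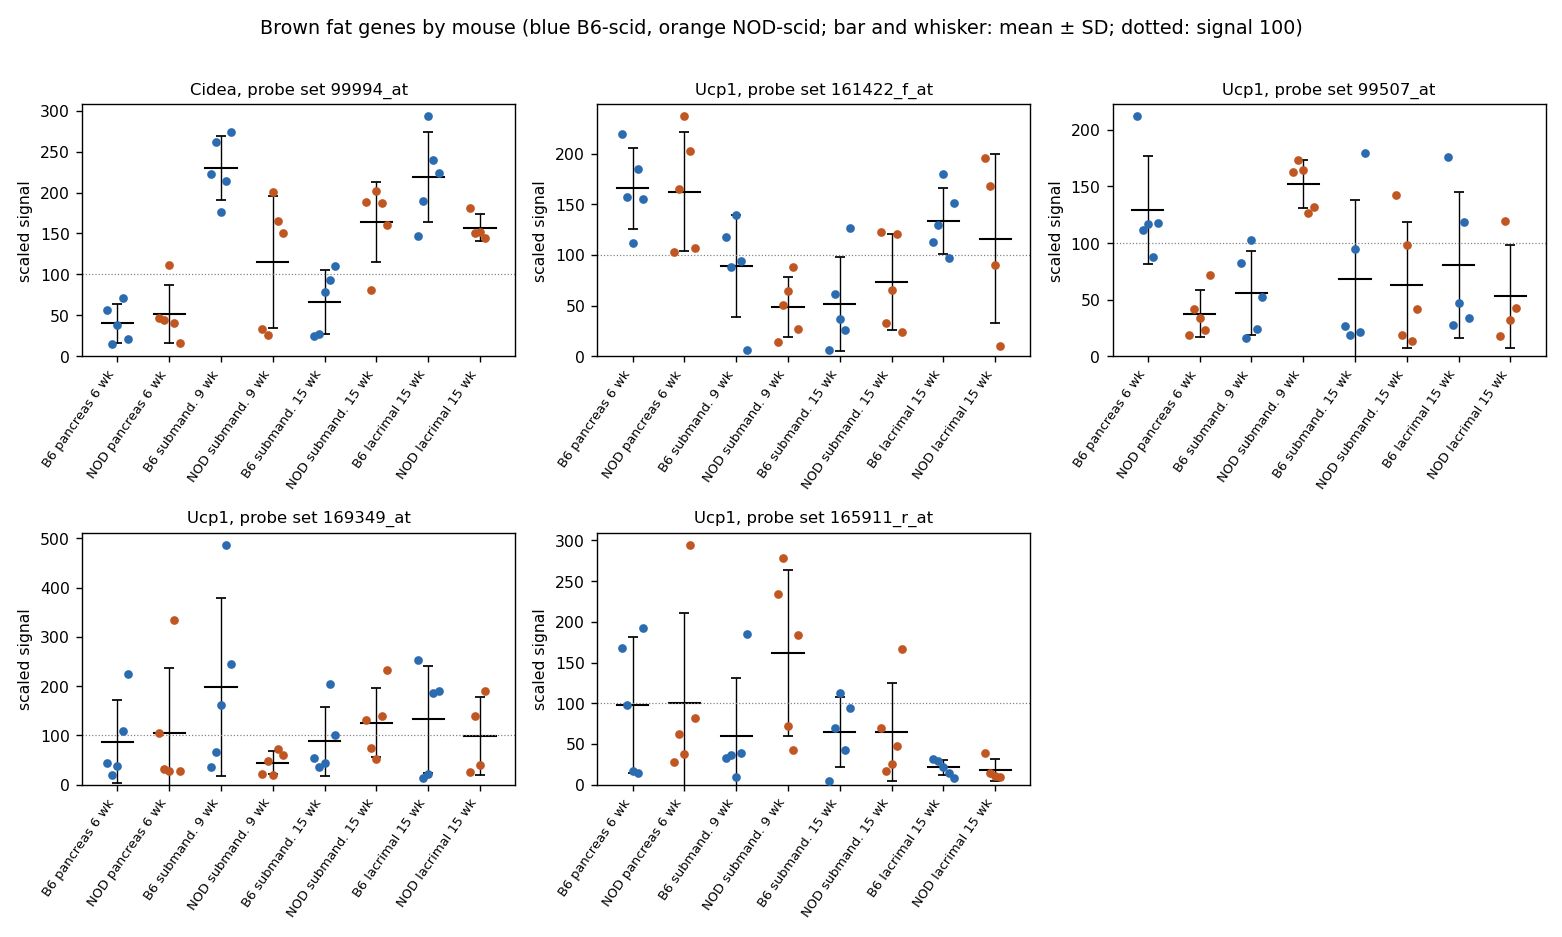
Scaled signal (y axis, linear) of Cidea and of the 4 probe sets of Ucp1 in every mouse, by gland, age and strain; points are mice, the bar is the group mean and the whisker the SD, cut at 0 where it would reach below. Cidea is dim in the pancreas and lower at 15 than at 9 weeks in the B6-scid submandibular gland, and the 4 Ucp1 probe sets differ in which groups they place high.

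The lead probe sets of the member genes showed little common movement from mouse to mouse. After each group's mean was subtracted, their 36 pairs had correlations from -0.51 (Lpl and Retn) to 0.35 (Fabp4 and Cidea) with a median of 0.05, and 0 of the 36 were above 0.5. Pparg was under 100 in 36 of the 39 samples, Retn in 28 and Ucp1 in 18. For pairs with these dim probe sets, a correlation near 0 cannot show that the genes moved apart. Over all 39 samples, where differences between glands enter, 1 pair was above 0.5, Lpl and Fabp4 at r = 0.59. Even probe sets of the same gene were at best partly alike within groups, with r from -0.24 (Retn) to 0.58 (the bright pair of Scd1). The Lpl pair, of which 160083_at was under 100 in 20 of the 39 samples, had r = 0.15. These are descriptions over 39 samples that share glands and strains. The genes whose pattern was most like that of Adipoq over all samples were Mrpl14 (r = 0.69), Cilp2 (0.66), Lypd3 (0.65), H1f10 (0.63) and Plxna2 (0.62), out of 27368 probe sets. For Lpl they were Lgals1 (0.81), Nr1h3, Phf3, Gclc and Bpnt2 (all 0.80 to 0.81), and for Ucp1 Septin3 (0.74), Rap2a (0.71), Fzd3 (0.70), Gab2 (0.69) and Cd82 (0.69). With rank correlation in place of Pearson's, only Cilp2 and Lypd3 for Adipoq and Bpnt2 for Lpl stayed among the 5 most alike.

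Wider lists of fat genes gave little more between the strains. Of all probe sets tested, 0.647% passed in the pancreas, 1.12% and 0.594% in the submandibular gland at 9 and at 15 weeks, and 1.19% in the lacrimal gland. Of 33 further white fat genes, 29 were on the arrays and 21 to 23 were tested in each strain comparison. Lpin1, a phosphatidate phosphatase of triglyceride synthesis, was lower in the NOD-scid pancreas (86.1 ± 36.4 against 332 ± 56.9, SD, n = 5 each; adjusted p 0.00759, limma). Dlk1, a surface protein of preadipocytes, was higher in the NOD-scid submandibular gland at 15 weeks (1092 ± 49.9 against 484 ± 183; adjusted p 0.0173). No other member of that list passed in a strain comparison. The medians of the list's differences were 0.04, 0.14, -0.01 and 0.04 in the pancreas, submandibular gland at 9 and at 15 weeks and lacrimal gland, beside 0.02, 0.03, 0.01 and 0.02 for all probe sets tested. Of 21 further brown fat genes, 18 were on the arrays and 10 to 12 tested, and Slc27a2, a fatty acid transporter, alone passed, higher in the NOD-scid lacrimal gland (919 ± 87.0, n = 4, against 269 ± 118, n = 5, SD; adjusted p 0.0277).

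The genes that act on or beside the members were also followed, beside the same shares of all probe sets. At an unadjusted limma p under 0.05 there were 2878 of 28733 probe sets in the pancreas. There were 3715 and 2182 of 32136 in the submandibular gland at 9 and at 15 weeks, and 3861 of 27686 in the lacrimal gland. Of the 11 genes tested that assemble, anchor or inhibit Lpl or handle its lipoproteins, 0 passed in the pancreas and in the submandibular gland at either age (2, 1 and 3 at an unadjusted p under 0.05), and Apoe alone fell in the NOD-scid lacrimal gland (1594 ± 401, n = 4, against 4030 ± 925, n = 5, SD; adjusted p 0.0320, limma). Of 9 genes of lipolysis, Pde3b, the phosphodiesterase through which insulin restrains lipolysis, was higher in the NOD-scid submandibular gland at 9 weeks (1341 ± 506 against 150.2 ± 73.0, SD, n = 5 each; adjusted p 0.000209) and at 15 weeks (939.8 ± 581 against 129 ± 76.3; adjusted p 0.00116). Of 16 to 19 genes of fatty acid synthesis and desaturation tested, Elovl5, an elongase, alone passed between strains, higher in NOD-scid at 9 weeks (522 ± 143 against 248 ± 111; adjusted p 0.0411). Of 5 to 7 partners of Pparg, Med1 alone passed, higher in NOD-scid at 9 weeks (678 ± 235 against 263 ± 144; adjusted p 0.0179). Of 7 or 8 paralogs of the members tested, 0 passed in a strain comparison (limma; at most 1 had an unadjusted p under 0.05 in each).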

How the data were processed

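The authors deposited MAS5 signal intensities, per the submitters' processing notes, 1 value per probe set and array. The labels' protocols give Trizol RNA and biotinylated cRNA from 10 microg of total RNA. Version, scaling target and detection calls are not given in the sources used here. Genes were named by GEO's platform annotation, updated through RefSeq's gene table (GRCm38.p6): 29131 probe sets had 1 symbol (29044 matched), 724 several and 6846 none. Each array was rescaled to a 2% trimmed mean of 500, 198 control probe sets were left out, and log2(signal + 32) was fitted with limma 3.58.1 in R 4.3.3 (lmFit and eBayes per array design, Benjamini-Hochberg over the 3 designs). The pancreas (10 samples), the submandibular gland (20), the lacrimal gland (9) and both glands of 15 weeks (19) were fitted apart. In simulated data, changes were planted in probe sets with a signal of at least 200 in every sample. Of log2 changes of 1, the fits called 46% in the pancreas, 43% in the submandibular gland at 15 weeks and 24% in the lacrimal gland. In the NOD-scid gland comparison they called 52%. Of changes of 2 they called 88%, 94%, 88% and 92%, so changes of 1 were often missed. The brightest probe set of a gene on the first design that holds it leads, and from other lists up to 3 called members of smallest p are named. Members and lists were chosen with earlier results of these data known. Each sample is labelled as a numbered mouse; the number of arrays limits the precision.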

Additional observations from a re-analysis of the deposited data

Results flagged for a closer look

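Single mice stood far from the rest of their group in 5 of the 72 combinations of a gene's lead probe set and a group, by the gap to the nearest mouse over the whole range; about 1 in 20 would be so marked by chance. Retn read 229.5 in B6-scid lacrimal mouse 3, where the other 4 read 23.6 to 37.7. Pparg read 99.98 in B6-scid submandibular mouse 2 at 9 weeks, where the others read 3.56 to 8.89. Lipe read 44.3 in NOD-scid submandibular mouse 3 at 9 weeks, below the 236 to 408 of the others. Cidea read 80.4 in NOD-scid submandibular mouse 2 at 15 weeks, below the 159.9 to 202 of the others. Ucp1 read 6.02 in B6-scid submandibular mouse 5 at 9 weeks, below the 88.1 to 139 of the others. The gland difference of Lpl (95611_at) at 15 weeks differed between the strains, by -2.32 on the log2 scale (limma adjusted p 0.0439). This call was kept in 3 of the 19 fits with a mouse left out and in 7 of 14 other settings, and was lost without either pair of doubted samples.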

How the results depend on the processing

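The values here are numbers of member probe sets that passed. The shares of all probe sets that passed under each setting are not given here. A changed count therefore says nothing particular to the members. In the pancreas (1 in the report) there were 2 with quantile normalization, median scaling or an intensity trend, and 0 with the RNA quality covariate, the replicate block or 1 eBayes fit over the 3 designs. Leaving out a mouse gave 0 to 2. In the submandibular gland at 9 weeks (1) there were 0 in 1 fit of all 39 samples, and 1 whichever mouse was left out. At 15 weeks (1) array weights gave 2, and leaving out a mouse 1 to 2. The NOD-scid age difference (1) gave 0 with a pseudocount of 16, no filter, quantile normalization, the RNA quality covariate, 1 eBayes fit, without the 9-week samples numbered 4 and 5, or without the 2 samples high in Cela1. It gave 2 with a pseudocount of 100, 1 fit of all samples or an intensity trend, and 0 to 2 without a mouse. The lacrimal comparison (1) gave 3 in 1 fit of all samples, 2 with an intensity trend, 0 with the replicate block or without the 2 samples high in Bpifa2, and 0 to 2 without a mouse. The B6-scid gland difference (3) gave 1 to 3 without a mouse. The strain by gland interaction (1) gave 0 with a pseudocount of 16, quantile normalization, median scaling, 1 eBayes fit or without either pair of doubted samples, 2 with a pseudocount of 100 or an intensity trend, 3 in 1 fit of all samples, and 0 to 1 without a mouse. The cause was not tested. The other counts stayed within 1.5 times. No call reversed, while probe sets that did not pass turned sign in some fit in 9 of the 10 comparisons, for example 6 of 11 in the pancreas and 5 of 10 in the B6-scid gland difference. Same-numbered mice did not deviate together (r from -0.03 to 0.09), so the numbers were not taken as pairs. With the replicate block the interaction also counted 1, but Scd1 94057_g_at (adjusted p 0.0145) in place of Lpl (0.0944), and the Fabp4 gland differences had adjusted p of 0.0638 in NOD-scid and 0.0957 in B6-scid. The single eBayes fit and the fits without doubted samples were chosen after seeing the data. Signals near background limit Pparg, Retn and Ucp1.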

Other observations

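With age, genes beside the members moved in the B6-scid submandibular gland. Scd2, a paralog of Scd1, rose from 699 ± 323 at 9 weeks to 3444 ± 1450 at 15 weeks (SD, n = 5 each; log2 difference 2.20, limma adjusted p 0.00366). Srebf1, the transcription factor of fatty acid synthesis, rose from 913 ± 159.9 to 1966 ± 378 (1.07, adjusted p 0.00919). They were the 2 of 19 genes of fatty acid synthesis and desaturation tested that passed in B6-scid, where 1.22% of all probe sets did. In NOD-scid 0 of 19 passed, against 0.977% of all. There 4 of the 19 had an unadjusted p under 0.05, beside 4625 of all 32136 probe sets. The strain by age interaction called 0 of the 19 (4 at an unadjusted p under 0.05), so a difference between strains was not shown. Pdk4, a kinase that shuts off pyruvate oxidation, fell from 5534 ± 2818 to 505 ± 309 (-3.38, adjusted p 0.00642). It was the 1 of 12 further brown fat genes tested that passed in B6-scid. Angptl4, a secreted inhibitor of Lpl, fell from 810.1 ± 192 to 376 ± 98.3 (-1.05, adjusted p 0.0326), and Sel1l, which Lpl needs to leave the endoplasmic reticulum, rose from 1317 ± 235 to 2832 ± 471 (1.09, adjusted p 0.0181). Of the 11 genes tested that act on Lpl or handle its lipoproteins, these alone passed in B6-scid, and 0 passed in NOD-scid. In NOD-scid, Esrra, a nuclear receptor of mitochondrial genes, fell from 2331 ± 280.1 to 1429 ± 278 (-0.71, adjusted p 0.0446), the 1 of 12 further brown fat genes tested that passed there. Obp1a and Cela1 had lower means at 15 than at 9 weeks in both strains, and their part in these changes was not tested.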
